A study of Mus musculus with 6 samples.

Results

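Small nucleolar RNA (snoRNA) host genes are transcribed genes whose introns carry snoRNAs. The 7 genes followed were the mouse non-coding hosts Snhg6, Snhg1, Snhg3, Snhg5, Snhg8, Snhg12 and Gas5, in cultured intestinal epithelium under tunicamycin. Members were chosen by symbol, and each symbol was mapped to its Ensembl identifier through the GENCODE vM21 annotation. The matrix holds 27998 genes, and 2 of the 7 symbols matched one of them: Snhg6 (ENSMUSG00000098234) and Snhg12 (ENSMUSG00000086290). The other 5 (Snhg1, Snhg3, Snhg5, Snhg8 and Gas5) were not analysed here. The 7 genes had been listed with the response to tunicamycin in view, so their levels and fold changes in the treatment comparisons are given as a description. Calls of the model for them are printed only beside the share of all genes called, and nothing is read from them.

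A snoRNA is cut out of the host's intron after splicing and guides a chemical modification of ribosomal or spliceosomal RNA. Box C/D snoRNAs guide ribose methylation by fibrillarin, and box H/ACA snoRNAs guide the conversion of uridine to pseudouridine by dyskerin. The spliced host RNA that remains is exported, is bound by ribosomes on a short reading frame, and is cleared by nonsense-mediated decay (NMD), which needs ongoing translation. Many hosts also begin with a terminal oligopyrimidine tract, the sequence that ties transcripts of ribosomal proteins to nutrient and growth signals. Tunicamycin blocks N-linked glycosylation, which causes stress of the endoplasmic reticulum (ER), and the ER kinase PERK then lowers translation in the cell.

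The series profiled single cells of differentiated monolayers, grown from intestinal organoids of B6 mice from the cross of Rosa26-floxed STOP-Cas9 with cmv-cre, so all groups share the Cas9 and Cre alleles. The 3 groups of 2 libraries received DMSO alone, or 0.5 µg/ml of tunicamycin over 13 h or over 25 h. Treatment began on differentiation day 3 and all groups were harvested on day 4, and the 13 h cultures stood in DMSO before tunicamycin was added. The labels give the tissue as small intestine but the starting material as colonic spheroids, and no age or sex is used here. The series text calls the 2 libraries of a group biological replicates but does not say whether they came from separate animals, so p-values measure the spread between these libraries.

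After cell filters 5026 of 5122 cells remained, with 9432005 to 19539013 UMIs (unique molecular identifiers, each 1 captured transcript) per library. Levels are given as CPM, the UMI count of a gene scaled to the total of its library or class. Classes are the authors' own, read from the cell names: enterocytes made up 426 to 1046 cells per library, goblet cells 75 to 109 and the class named tuft 12 to 27. Markers were checked against the labels: the 8 enterocyte markers summed to 3230 to 6340 CPM in enterocytes, and the 7 goblet markers to 79300 to 196000 in goblet cells. The enterocyte markers also summed to 1140 to 3520 CPM in goblet cells and to 304 to 4450 in the class named tuft. They were highest in enterocytes within each library but did not separate the classes across libraries. The goblet markers summed to 2350 to 3920 CPM in enterocytes. In the class named tuft, 25 of 108 cells held any UMI of the 5 tuft markers, so the data go against that name for most of the class. Hspa5, the ER chaperone BiP, checked the treatment: its level was 190 and 235 CPM in DMSO, then 4916 and 5117 after 13 h, then 3000 and 3126 after 25 h. The libraries share 12 cell barcodes.

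Snhg6 lies on the minus strand at chr1:9941959-9944118 (mm10) and Snhg12 on the plus strand at chr4:132308623-132311024, both annotated as lincRNA genes. Snhg6 carries 1 snoRNA, the box C/D RNA Snord87, in intron 2 of 3 of Snhg6-203, the longest of its transcripts with the most exons. Snhg12 carries 4, 1 in each intron of Snhg12-206: the H/ACA RNAs Snora16a, Snora44 and Snora61 and, in intron 4, the C/D RNA Snord99. The UMIs counted here were assigned to the host genes, by a method for polyadenylated RNA, and not to these small RNAs. Whether the captured host RNA was fully spliced was not tested. The 5 snoRNAs are shown because they define the genes as hosts. Capitals mark the first TGATGA (box C) and the last CTGA (box D) of the C/D RNAs, and the last ACA within 8 bases of the end of the H/ACA RNAs, which the entry for Snora44 lacks.
Snord87: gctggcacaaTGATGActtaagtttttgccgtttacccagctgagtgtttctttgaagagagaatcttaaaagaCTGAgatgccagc
Snord99: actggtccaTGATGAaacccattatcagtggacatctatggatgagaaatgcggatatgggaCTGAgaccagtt
Snora16a: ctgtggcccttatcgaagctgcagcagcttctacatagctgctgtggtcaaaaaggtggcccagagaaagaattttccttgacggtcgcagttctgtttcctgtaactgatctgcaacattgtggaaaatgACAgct
Snora44: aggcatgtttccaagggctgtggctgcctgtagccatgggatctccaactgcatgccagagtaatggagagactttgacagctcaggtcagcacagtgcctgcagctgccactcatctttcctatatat
Snora61: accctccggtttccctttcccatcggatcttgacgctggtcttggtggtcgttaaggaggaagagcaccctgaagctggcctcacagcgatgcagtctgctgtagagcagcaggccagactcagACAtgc

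**Figure D1:**
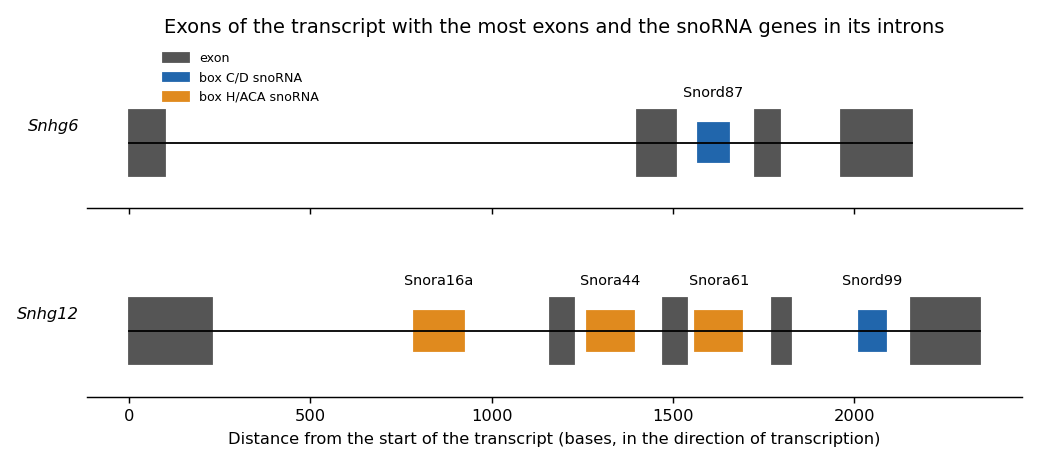
Exons (grey) and intronic snoRNA genes (blue, box C/D; orange, box H/ACA) of Snhg6 and Snhg12, against distance from the transcript's start in bases. Snhg6 has 1 snoRNA among 3 introns and Snhg12 has 1 in each of its 4 introns.

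In the longest of the transcripts with the most exons, each host has a short reading frame that ends upstream of an exon junction. A junction more than 50 bases after the stop of the longest frame was found in 6 of 10 annotated Snhg12 transcripts and in 3 of 5 of Snhg6, and which transcripts gave the UMIs was not tested. In Snhg12-206, with 5 exons and 606 bases, the longest ATG-to-stop frame runs from base 38 to base 202 and has 54 codons before the stop. Of its 4 exon junctions, 3 lie more than 50 bases after that stop, the usual distance beyond which a junction marks a transcript for NMD. Snhg12-202, which also has 5 exons but 422 bases, differs. Its longest frame runs from base 209 to base 370, with 0 junctions after the stop. In Snhg6-203, with 4 exons and 473 bases, the longest frame runs from base 42 to base 203 with 53 codons, and 1 of the 3 junctions lies more than 50 bases after the stop. The first 300 bases of Snhg12-206 and Snhg6-203 are shown because they hold this frame, in capitals, at the very start of the RNA. A reading frame found by letters is a description and no evidence that it is translated.
Snhg12-206: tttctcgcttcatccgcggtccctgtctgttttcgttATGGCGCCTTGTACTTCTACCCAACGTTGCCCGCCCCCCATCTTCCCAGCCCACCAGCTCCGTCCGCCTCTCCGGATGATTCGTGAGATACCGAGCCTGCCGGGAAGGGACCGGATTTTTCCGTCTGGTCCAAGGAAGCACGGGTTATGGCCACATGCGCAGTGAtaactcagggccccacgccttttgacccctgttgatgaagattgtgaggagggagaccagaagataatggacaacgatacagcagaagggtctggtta
Snhg6-203: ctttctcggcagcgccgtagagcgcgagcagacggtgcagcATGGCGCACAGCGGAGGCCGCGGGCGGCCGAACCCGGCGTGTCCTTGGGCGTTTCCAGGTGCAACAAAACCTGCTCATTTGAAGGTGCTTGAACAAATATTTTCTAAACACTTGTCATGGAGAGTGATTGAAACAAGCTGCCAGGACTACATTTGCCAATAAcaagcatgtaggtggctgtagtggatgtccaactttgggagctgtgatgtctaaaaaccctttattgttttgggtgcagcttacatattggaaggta

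The annotated start of Snhg12 falls in a pyrimidine run of 9 bases that begins at base -3. Of 32851 RefSeq promoters, 3.951% have a run at least as long within 5 bases of the annotated start. The 300 bases below (RefSeq, GRCm38.p6, chr4:132308428-132308727, plus strand, 250 bases before to 50 after the start) hold that run in capitals. Neither the ATF4 and C/EBP element core TGATGNAA, nor the consensus ER stress response element, nor the E-box CACGTG occurs in them on either strand. Those letters occur in 3.969%, 0.119% and 7.15% of the same promoters.
Snhg12 promoter: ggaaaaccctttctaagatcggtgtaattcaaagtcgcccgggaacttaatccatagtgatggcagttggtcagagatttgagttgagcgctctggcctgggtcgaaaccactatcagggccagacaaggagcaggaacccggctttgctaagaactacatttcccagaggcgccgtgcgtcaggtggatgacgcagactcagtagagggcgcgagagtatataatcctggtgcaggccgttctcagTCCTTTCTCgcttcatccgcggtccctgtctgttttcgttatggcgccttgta

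Snhg12 differed more from DMSO than Snhg6 did, and stood higher at 25 h than at 13 h. Over all cells, its level was 9.06 and 8.41 CPM in the DMSO libraries, then 25.5 and 22.6 after 13 h, then 52.8 and 54.6 after 25 h. The means were 8.73 ± 0.46, 24.0 ± 2.05 and 53.7 ± 1.24 (SD, n = 2). These levels rest on 155 to 566 UMIs per library. The log2 fold change was 1.38 ± 0.09 (SE) at 13 h against DMSO, 2.55 ± 0.09 at 25 h against DMSO and 1.17 ± 0.08 at 25 h against 13 h. At 25 h, 0.584% of the 11474 genes tested had a larger log2 fold change over DMSO than Snhg12, compared with 2.41% at 13 h.

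Snhg6 was higher at both times than in DMSO, by less than Snhg12, and its 13 h and 25 h libraries overlapped. Its level over all cells was 48.8 and 40.2 CPM in DMSO, then 68.4 and 84.3 after 13 h, then 71.8 and 93.0 after 25 h. Within each treated group replicate 2 stood above replicate 1. The means were 44.5 ± 6.10, 76.3 ± 11.2 and 82.4 ± 15 CPM (SD, n = 2), from 677 to 1233 UMIs per library. The log2 fold change over DMSO was 0.70 ± 0.13 (SE) at 13 h and 0.82 ± 0.13 at 25 h. Between 25 h and 13 h the log2 difference was 0.13 ± 0.13, and its sign turned when 1 library was left out, to -0.01 without 13 h replicate 1 and to -0.10 without 25 h replicate 2.

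In the edgeR quasi-likelihood fit with a Benjamini-Hochberg threshold of 0.05, both genes were called higher at 13 h and at 25 h over DMSO, and Snhg12 alone at 25 h over 13 h. Of all genes tested, 21.4% were called higher at 13 h over DMSO, 24.5% at 25 h over DMSO and 8.95% at 25 h over 13 h. Since these comparisons lay behind the choice of the genes, nothing is read from the members' calls. In bulk sums such as these, more cells with the RNA and more RNA per cell cannot be told apart. The share of cells with a UMI, given below, rises with either, so it does not separate them.

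Enterocytes, the absorptive cells, held 73.4% to 92.8% of the Snhg6 UMIs of a library and 72.0% to 96.8% of the Snhg12 UMIs. In them Snhg12 stood at 9.12 and 8.95 CPM in DMSO, then 20.9 and 19.99 after 13 h, then 50.1 and 50.7 after 25 h. Replicates lay within 1 CPM of each other. The log2 fold change over DMSO was 1.12 ± 0.09 (SE) at 13 h and 2.43 ± 0.08 at 25 h, and 1.31 ± 0.07 between 13 h and 25 h. Snhg6 in enterocytes stood at 44.4 and 41.1 CPM in DMSO, then 59.1 and 75.8 after 13 h, then 64.1 and 83.9 after 25 h. Its log2 fold change over DMSO was 0.61 ± 0.12 at 13 h and 0.75 ± 0.12 at 25 h, with the treated groups overlapping. Both hosts were called higher over DMSO at both times and Snhg12 at 25 h over 13 h, where 23.8%, 26.1% and 10.4% of the 11145 genes tested in enterocytes were called higher. The 8 enterocyte markers summed to 6340 and 6110 CPM in DMSO enterocytes and to 3240 and 3230 after 25 h, and their part in these values was not tested.

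**Figure D2:**
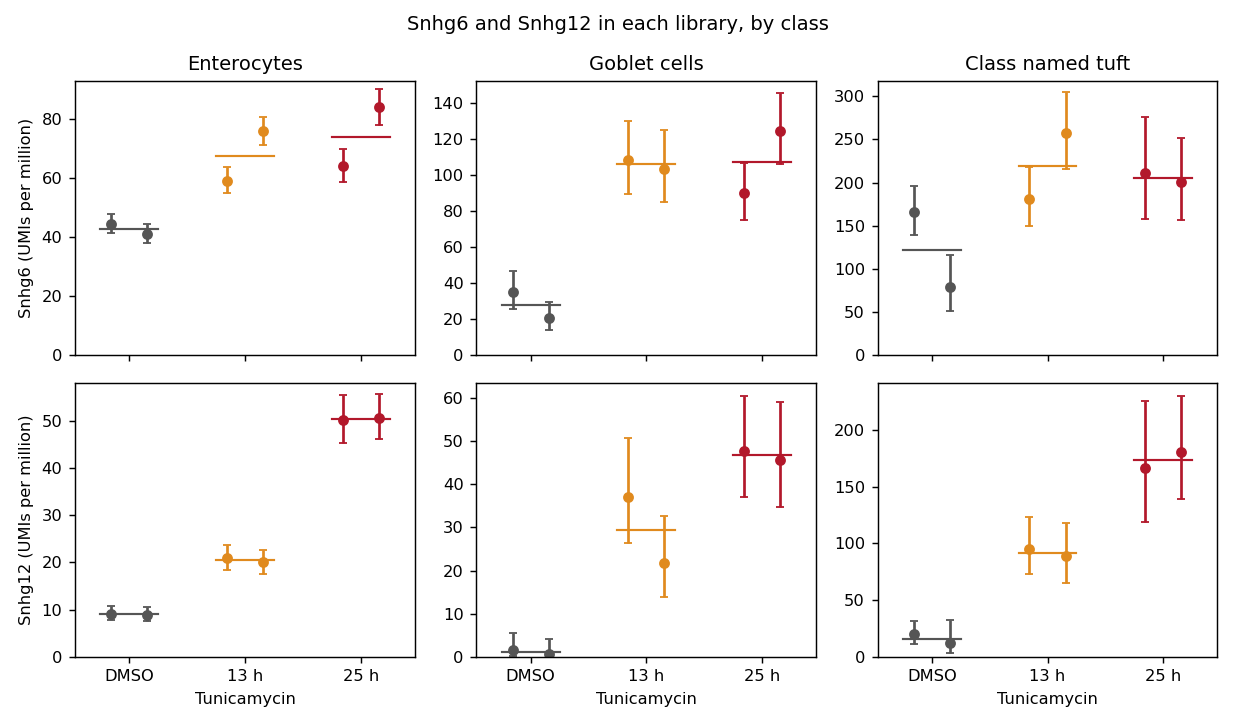
Snhg6 (top) and Snhg12 (bottom) in CPM (UMI counts scaled to the class's total), for each library (points) by group, with the mean of the 2 libraries (lines) and 95% Poisson intervals for counting error. Snhg12 lies above DMSO at both times in each class. Its 25 h points lie above those at 13 h, a difference that was not called in goblet cells and that ends in the class named tuft when the cell with the most UMIs is left out of each library that has one. Snhg6 at 25 h overlaps 13 h. The y axes differ between panels and start at 0.

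In goblet cells, the secretory cells that make mucus, both hosts started lower than in enterocytes and reached a similar or higher level under tunicamycin. Snhg12 was at 1.54 and 0.73 CPM in the DMSO goblet cells, then 37.1 and 21.8 after 13 h, then 47.7 and 45.7 after 25 h. The DMSO level rests on 2 UMIs in 105 cells and 1 UMI in 109 cells, against 39 and 23 UMIs at 13 h and 68 and 59 UMIs at 25 h. Scaled to the totals, the 62 UMIs of the 13 h libraries stand 26.1-fold above the 3 UMIs of DMSO, with a 95% exact interval for counting error of 8.52 to 130. At 25 h the 127 UMIs stand 41.5-fold above, with an interval of 13.9 to 204. The gene passed the filter on low counts through the treated libraries alone, so a fitted fold change in goblet cells (log2 4.43 ± 0.53 and 5.13 ± 0.46, SE) depends on the prior count and is no bound.

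Snhg6 in goblet cells was at 34.7 and 20.5 CPM in DMSO, then 108 and 103 after 13 h, then 89.8 and 125 after 25 h. These values rest on 45 and 28 UMIs in DMSO and on 109 to 161 UMIs in each treated library. The 13 h values lay between the 25 h values. The log2 fold change was 1.78 ± 0.23 (SE) at 13 h, 1.82 ± 0.22 at 25 h and 0.05 ± 0.18 between 13 h and 25 h. Both hosts were called higher over DMSO at both times, as were 10.8% of the 7839 genes tested in goblet cells at 13 h and 15.8% at 25 h. Between 25 h and 13 h, 2.03% were called higher, and neither host was among them. The calls of Snhg12 over DMSO rest on 3 UMIs in DMSO. They also follow a filter that the gene passed through the treated libraries alone, so nothing is read from them.

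The response of goblet cells was compared directly with that of enterocytes of the same libraries, as an interaction of class and treatment fitted over 10458 genes. The genes were chosen with these counts by class and group in view, so the differences are a description, with no test. At 13 h over DMSO the goblet log2 fold change of Snhg6 exceeded the enterocyte one by 1.14 ± 0.21 (SE) and that of Snhg12 by 3.35 ± 0.61. At 25 h over DMSO the excess was 1.04 ± 0.21 for Snhg6 and 2.75 ± 0.61 for Snhg12. The Snhg12 values rest on the 3 UMIs of the DMSO goblet cells and share the dependence on the prior count. Without DMSO replicate 2 the 25 h excess was 0.81 for Snhg6 and 2.36 for Snhg12.

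Other quantities moved in goblet cells along with the 2 hosts. The 7 goblet markers, all detected, summed to 196000 and 183000 CPM in DMSO goblet cells, to 113000 and 121000 at 13 h, and to 79300 and 95600 at 25 h. The 8 enterocyte markers in the same cells summed to 3520 and 3030 CPM in DMSO, and to 1140 to 1960 in the treated libraries, with Slc26a3 at 0. Their part in the class difference was not tested. Scaling by total counts in place of TMM moved the median goblet log2 fold change of all genes by 0.163 at 13 h and 0.134 at 25 h, which is small beside the changes of both hosts.

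**Figure D3:**
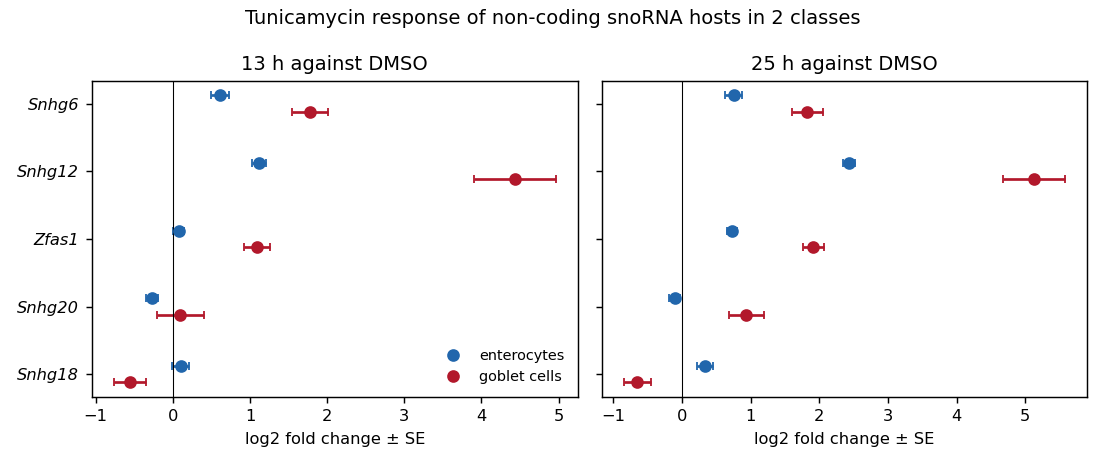
log2 fold change over DMSO (points, with the standard error as bars) in enterocytes (blue) and goblet cells (red) at 13 h and 25 h, for Snhg6, Snhg12 and 3 other non-coding hosts tested in both classes. The goblet value lies to the right of the enterocyte value for Snhg6, Snhg12, Zfas1 and Snhg20, and to the left for Snhg18.

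The share of cells with a UMI followed the levels, and at these low counts more RNA per cell raises it too. To compare libraries, each cell was thinned to 5000 UMIs, which left out 75 of the 5026 cells. With thinning, Snhg12 was detected in 3.97% and 3.71% of enterocytes in DMSO, in 9.24% and 7.92% at 13 h and in 18.2% and 19.2% at 25 h. Between replicates the shares differed by less than their 95% exact binomial intervals, which in DMSO ran from 2.86% to 5.35% and from 2.64% to 5.06%. Unthinned, 11.7% of DMSO enterocytes and 48.8% of 25 h enterocytes held a UMI (means of 2 libraries), at median depths of 14757 to 17862 UMIs. Counts of 2 or more in a thinned enterocyte were seen in 0.29% to 0.44% of cells in the DMSO and 13 h libraries and in 2.36% and 3.16% at 25 h.

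In goblet cells at 5000 UMIs, Snhg12 was detected in 1 of 97 and 0 of 102 cells in DMSO, and a count of 0 in 102 cells allows a share of up to 2.94% (3 counts of the total; the exact binomial upper bound is 3.55%). That limit is on cells with a UMI at this depth, not on cells that express the gene. At 13 h it was detected in 11.1% and 10.0% of goblet cells, and at 25 h in 18.8% and 19.5%. The goblet share and the enterocyte share therefore lay side by side at 25 h, at means of 19.1% and 18.7%, having been 0.516% and 3.84% in DMSO. No class is known to lack the gene, and the lowest share was that of the DMSO goblet cells, at median depths of 11664 and 11573 UMIs. The part of free RNA in the treated libraries was not tested. Unthinned, the goblet means were 1.41% in DMSO, 26.3% at 13 h and 41.1% at 25 h.

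Snhg6 was the more widely detected at the start. At 5000 UMIs it was found in 18.0% and 19.2% of DMSO enterocytes, in 25.1% and 27.8% at 13 h and in 27.8% and 34.3% at 25 h. In goblet cells the shares were 15.5% and 7.84% in DMSO, then 41.7% and 31.4% after 13 h, then 29.2% and 46.3% after 25 h. The 2 treated times overlapped in goblet cells and met at 27.8% in enterocytes. Unthinned, the means were 44.7% in DMSO and 63.7% at 25 h in enterocytes, and 24.9% and 65.5% in goblet cells.

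**Figure D4:**
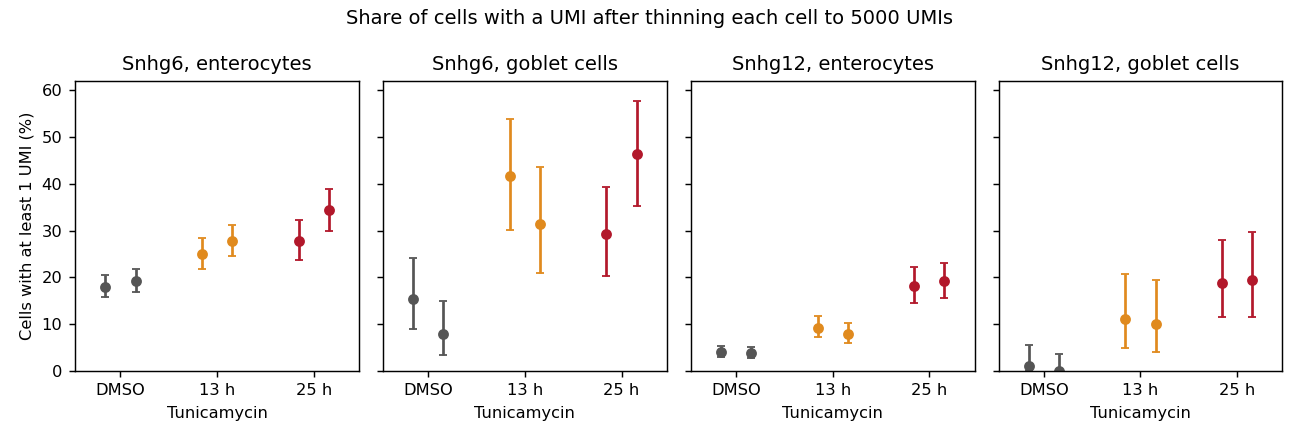
Share of enterocytes and goblet cells with at least 1 UMI of Snhg6 or Snhg12 after thinning each cell to 5000 UMIs, per library, with 95% exact binomial intervals. Snhg12 was found in 1 of 97 and 0 of 102 DMSO goblet cells and in 18.8% and 19.5% of those at 25 h.

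The class named tuft held few cells, but the highest CPM of both hosts. Snhg12 stood there at 19.7 and 12.6 CPM in DMSO, then 95.5 and 88.4 after 13 h, then 166 and 181 after 25 h, from 4 to 65 UMIs. A single cell supplied much of this: 27 of 59 and 31 of 46 UMIs at 13 h, and 34 of 41 and 29 of 65 at 25 h. In DMSO replicate 2 the 4 UMIs came from 4 cells. Leaving out the top cell of each other library gave 14.6 CPM in DMSO replicate 1, then 69.4 and 35.7 after 13 h, then 34.9 and 135 after 25 h. With it left out the 13 h and 25 h libraries overlapped. Snhg6 in the class was at 166 and 78.6 CPM in DMSO, then 181 and 258 after 13 h, then 211 and 200 after 25 h. Leaving out the cell with the most Snhg6 gave 151.5 and 59.1, 164.9 and 207.3, and 134.6 and 191.1, and the DMSO and 25 h libraries then overlapped. No fold change was tested in this class.

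The genes whose profile over the 6 libraries lay closest to the mean profile of the 2 hosts were Npm3, Lama3, Gstp3, Slc1a5 and Selenow. Closeness was the Euclidean distance between centred log2 CPM among the 5106 genes that averaged 20 CPM or more, and ran from 0.243 to 0.430. Pearson's r for these 5 ran from 0.978 to 0.996 across 6 libraries, which share their depth and treatment. Npm3, a nucleoplasmin-family histone chaperone, stood at 13.1 and 10.7 CPM in DMSO, then 29.2 and 28.7 after 13 h, then 35.1 and 43.7 after 25 h. Slc1a5, a glutamine transporter, stood at 13.0 and 14.3, 25.8 and 29.0, and 38.3 and 37.6 CPM in the same order. Within enterocytes Slc1a5 stood at 7.06 and 7.16, 15.65 and 17.92, and 17.27 and 15.25 CPM, so its treated times overlapped there. Its level in DMSO goblet cells was 77.9 and 99.8 CPM. Npm3, Lama3, Gstp3 and Selenow stood higher at 25 h than at 13 h within enterocytes too. The part of the classes' shares in these likenesses was not tested.

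Taken singly, the 2 hosts had different neighbours in profile, a comparison added after the values had been seen. Closest to Snhg6 were Rps19bp1, Ncl, Denr, Stc2 and Tomm40, at distances of 0.262 to 0.328. Ncl encodes nucleolin, a main protein of the nucleolus, and Denr a factor of translation re-initiation. Within enterocytes Stc2 stood at 15.8 and 14.8 CPM in DMSO, then 21.4 and 22.05 after 13 h, then 13.4 and 16.5 after 25 h. Its 25 h libraries thus spanned the DMSO ones, while Rps19bp1, Ncl, Denr and Tomm40 lay above DMSO there at both times. Closest to Snhg12 were Agr2, Gstp3, Ptrh2, Npm3 and Akr1c19, at distances of 0.625 to 0.999. Agr2, a disulfide isomerase of the ER that is also one of the goblet markers, stood at 238 and 246 CPM in DMSO, then 449 and 459 after 13 h, then 1083 and 1023 after 25 h. Goblet cells held 6.63% and 7.39% of all UMIs in DMSO and 15.1% and 12.4% at 25 h, and the part of this share in the likeness was not tested. Within enterocytes Agr2 stood at 7.98 and 6.74 CPM in DMSO, then 31.1 and 29.4 after 13 h, then 40.3 and 20.8 after 25 h. Its log2 difference there between 25 h and 13 h was -0.0016 ± 0.18 (SE), against the 1.31 of Snhg12.

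Neighbouring genes were examined on each side of both hosts. Trnau1ap lies on the other strand, and its 3′ end is 738 bases from the 3′ end of Snhg12. It rose by a log2 fold change of 0.36 ± 0.08 (SE; edgeR adjusted p = 0.00231) at 13 h and by 0.42 ± 0.08 (edgeR adjusted p = 0.00113) at 25 h. On the other side of Snhg12, Rab42, 5237 bases away, had 1 UMI in all libraries together. Mcmdc2 lies on the strand opposite to Snhg6 and overlaps its last 127 bases, and it had no UMI in any library. Whether the authors counted by strand is not given in the sources used, so reads of the overlap could not be assigned by strand. Tcf24, 16044 bases upstream of Snhg6, was at 0.58 to 0.95 CPM and did not pass the test at 13 h (log2 0.28 ± 0.40, SE) or at 25 h (0.13 ± 0.44).

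The other non-coding hosts differed among themselves. Of 17 listed, 7 matched an identifier and 4 had enough counts for the test over all cells: Zfas1, Snhg20, Snhg18 and Snhg9. Over DMSO, 1 of the 4 fell at 13 h (Snhg20) and 1 rose at 25 h (Zfas1). Zfas1, a host of box C/D snoRNAs, stood at 254 and 255 CPM in DMSO, then 291 and 290 after 13 h, then 407 and 482 after 25 h. Its log2 fold change was 0.11 ± 0.07 (SE; edgeR adjusted p = 0.24) at 13 h and 0.74 ± 0.07 (edgeR adjusted p = 5.48e-06) at 25 h. Snhg20 fell by 0.27 ± 0.07 on the log2 scale at 13 h (edgeR adjusted p = 0.00708), a call that was lost with DESeq2, in cells with at most 10% mitochondrial UMIs, and without DMSO replicate 2 or 13 h replicate 2. A difference between classes was found in Zfas1, whose goblet log2 fold change exceeded the enterocyte one by 0.97 ± 0.14 (SE; edgeR adjusted p = 1.25e-05) at 13 h and 1.14 ± 0.14 (edgeR adjusted p = 6.32e-08) at 25 h. A larger goblet response was called for 1.48% of all genes at 13 h and 2.55% at 25 h. Zfas1 in goblet cells stood at 81.8 and 69.7 CPM in DMSO, then 199.5 and 161.3 after 13 h, then 275.7 and 349.4 after 25 h. Snhg18 and Snhg9 passed at neither time over all cells, with log2 fold changes of 0.07 and -0.03 at 13 h and 0.20 and -0.28 at 25 h.

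Of all genes, 24.3% fell at 13 h and 26.1% at 25 h over DMSO, beside the shares that rose given above. Coding hosts are the larger part of the family, and among them the hosts that encode ribosomal proteins stood apart in count. The 30 ribosomal protein genes with a snoRNA inside them were all tested: 26 rose at 13 h and 30 at 25 h. Their median log2 fold change was 0.37 at 13 h and 0.99 at 25 h, against medians of -0.01 and 0.01 over all 11474 genes. Rpl10 stood at 1743 and 1818 CPM in DMSO, then 2986 and 3000 after 13 h, then 4554 and 4443 after 25 h. In goblet cells all 30 rose at both times, with medians of 0.90 and 1.78. Ribosomal protein genes without a snoRNA were not set beside them, so whether the rise goes with hosting was not tested. Of 226 other coding hosts 161 were tested, 44 rose and 34 fell at 13 h, and 45 rose and 38 fell at 25 h, with medians of 0.03 and 0.04. Hspa9, a mitochondrial chaperone, stood at 69.6 and 69.4 CPM in DMSO, then 275 and 283 after 13 h, then 253 and 247 after 25 h.

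Most of the listed genes for proteins of snoRNA particles rose over DMSO in RNA. Of these 9 genes, which cover both the box C/D and the box H/ACA particle, 6 rose at 13 h and 8 at 25 h. Their median log2 fold changes were 0.59 and 0.92. Fbl, which encodes fibrillarin, rose by a log2 fold change of 0.58 ± 0.13 (SE; edgeR adjusted p = 0.00343) at 13 h and 0.92 ± 0.13 (edgeR adjusted p = 0.000123) at 25 h. Nhp2, of the H/ACA particle, stood at 14.8 and 9.11 CPM in DMSO, then 24.3 and 23.9 after 13 h, then 26.2 and 27.9 after 25 h. In goblet cells it stood at 2.31 and 1.47 CPM in DMSO, from 3 and 2 UMIs, so the size of its rise there is uncertain. It then stood at 32.3 and 21.8 CPM after 13 h, and at 28.1 and 29.4 after 25 h. In goblet cells 6 of these particle genes, Nhp2 among them, were tested, and 5 rose at 13 h and 6 at 25 h. Of all genes tested in goblet cells, 10.8% and 15.8% were called higher at these times. Nhp2 passed the filter on low counts there through the treated libraries alone, so nothing is read from a call of it. Among 9 tested assembly factors 4 rose at each time, and the 13 h count was 2 with DESeq2 and without 13 h replicate 1. Of 12 ribosome biogenesis genes 9 rose at 13 h, and 7 rose and 1 fell at 25 h. The call of the gene that fell was lost with total-count scaling, DESeq2 and the 10% mitochondrial limit, and without DMSO replicate 1, DMSO replicate 2 or 25 h replicate 2. Npm1, which encodes nucleophosmin, stood at 196 and 181 CPM in DMSO, then 272 and 279 after 13 h, then 474 and 466 after 25 h.

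Genes of the decay pathway that clears host RNAs are set beside the 21.4% of all genes that rose and the 24.3% that fell at 13 h, and the 24.5% and 26.1% at 25 h. Of 15 NMD factors 5 rose at 13 h, and 5 rose and 3 fell at 25 h, with median log2 fold changes of 0.08 and -0.01. Nbas, an NMD factor that also works in transport between the Golgi and the ER, rose by 1.18 ± 0.12 (SE; edgeR adjusted p = 1.01e-05) at 13 h. Of 6 genes of the exon junction complex 4 rose at 13 h and 3 at 25 h, and the 13 h count was 2 without DMSO replicate 2 or without 13 h replicate 1. Among 10 RNA decay enzymes 3 rose and 2 fell at 13 h, and 1 rose and 3 fell at 25 h. Xrn1, the exonuclease that degrades RNA after cleavage or decapping, fell by 0.62 ± 0.09 on the log2 scale at 13 h (edgeR adjusted p = 0.000194) and by 0.43 ± 0.10 at 25 h (edgeR adjusted p = 0.00327).

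Of 15 genes listed for transcripts known as NMD targets, 10 rose and 3 fell at 13 h, and 10 rose and 2 fell at 25 h. UMIs were counted per gene, so transcripts that NMD clears were not told apart from other transcripts of the same gene. Several of these genes are also transcriptional targets of the ER stress response, and the part of each was not tested. Ddit3, which encodes the stress factor CHOP, stood at 60.4 and 82.8 CPM in DMSO, then 1279 and 1285 after 13 h, then 739 and 746 after 25 h. Atf4 stood at 93.4 and 98.2 CPM in DMSO, then 345 and 365 after 13 h, then 328 and 324 after 25 h. Both were highest at 13 h, when Snhg12 was at its middle level.

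**Figure D5:**
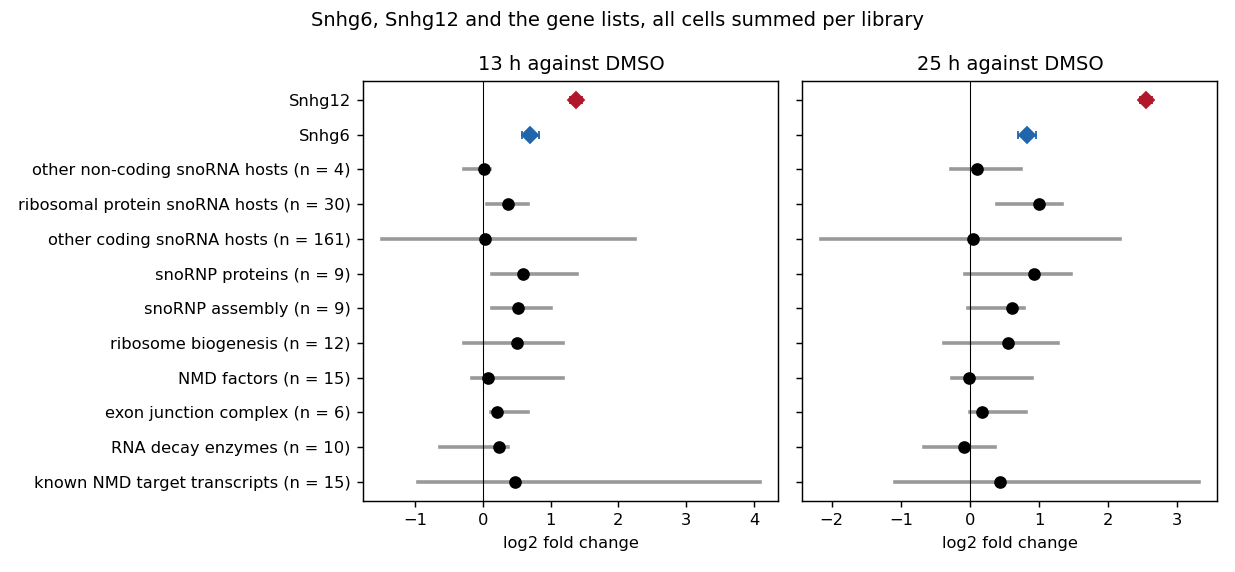
log2 fold change over DMSO at 13 h and 25 h for Snhg12 and Snhg6 (diamonds, with the standard error as bars) and for the gene lists (median as a point, lowest to highest tested gene as a line; n is the number tested), all cells summed per library. The medians of the ribosomal protein hosts are 0.37 and 0.99, and Snhg12 lies at 1.38 and 2.55.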

How the data were processed

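The authors deposited 1 matrix of raw UMI counts per gene and cell for all 6 libraries (10x Genomics 3′ V2, per the labels' protocols), with library and class in the cell names. Cell Ranger and mm10 are named per the submitters' processing notes, with the version not given in the sources used. Of 27998 gene identifiers 27722 matched GENCODE vM21, and 0 value columns were left unused. A cell was removed if it had under 1000 UMIs, under 500 genes or a mitochondrial share over 25%, which took out 96 cells. No doublet caller was run.

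Counts were summed per library and class. All 6 libraries entered each fit with edgeR 4.0.16 (quasi-likelihood test, TMM scaling, R 4.3.3), with Benjamini-Hochberg adjustment over all genes tested and a threshold of 0.05. The class comparison was an interaction term with library as a block, and its p-values are given for other hosts but not for the members. DESeq2 1.42.0, total-count scaling, no count filter, a 10% mitochondrial limit, a replicate block and leaving out each library were alternatives. The fits were tested on simulated data. Levels are CPM on the total count, which are not compared between genes. Intervals are exact Poisson or Clopper-Pearson at 95% and cover counting error only.

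The members and lists were chosen with earlier results of these data known. Named genes were the members, up to 4 genes per list with the lowest adjusted p at 25 h over DMSO, the nearest coding genes, the 5 closest profiles, and Hspa5, Ddit3 and Atf4. snoRNA, transcript and promoter sequences come from the annotation and RefSeq tables. Snhg6 had no promoter entry.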

Additional observations from a re-analysis of the deposited data

Results flagged for a closer look

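The response of goblet cells differed from that of enterocytes, by the interaction test, in 4 results on 3 other non-coding hosts. The goblet log2 fold change of Zfas1 over DMSO was larger than the enterocyte one by 0.97 at 13 h and 1.14 at 25 h, and it passed in 11 of 11 alternatives at each time. For Snhg20 the excess at 25 h was 1.01, with edgeR adjusted p = 0.02, and it passed in 6 of 10 alternatives. Snhg18 differed the other way at 25 h, by -1.01, with edgeR adjusted p = 0.00117, and it passed in 8 of 10. In enterocytes Snhg18 stood 0.34 above DMSO on the log2 scale at 25 h, and in goblet cells it fell by 0.65.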

How the results depend on the processing

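Of 278 values of the member fold changes under alternatives, 6 turned sign, and both hosts stayed above DMSO at both times in every alternative. The members were chosen with these comparisons in view, so this describes the processing only, and nothing is read from it. Values of Snhg12 in goblet cells over DMSO rest on 3 UMIs in DMSO. Leaving out 1 library in turn, the log2 difference of Snhg6 between 25 h and 13 h ran from -0.10 to 0.31 over all cells. For Snhg6 the difference ran from -0.10 to 0.34 in enterocytes (the highest without 25 h replicate 1) and from -0.24 to 0.30 in goblet cells. Its class difference at 25 h against 13 h ran from -0.30 to 0.10. The 6 values that turned sign were -0.014, -0.0972, -0.017, -0.0967, -0.2412 and 0.1003. Snhg12 in goblet cells at 25 h against 13 h ran from 0.36 to 1.13 (the highest without 13 h replicate 1). The class difference at 25 h over DMSO ran from 0.81 to 1.43 for Snhg6 and from 2.36 to 3.37 for Snhg12, both lowest without DMSO replicate 2. DESeq2 gave no adjusted p for 4 results, among them that of Snhg12 at 25 h.

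Without thinning, Snhg12 was detected in 11.7%, 25.9% and 48.8% of enterocytes and 1.41%, 26.3% and 41.1% of goblet cells in DMSO, at 13 h and at 25 h. For Snhg6 these shares were 44.7%, 59.1% and 63.7%, and 24.9%, 62.5% and 65.5%.

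DESeq2 called fewer genes than edgeR. In goblet cells it called 818 against 1754 at 13 h over DMSO, 1221 against 2491 at 25 h over DMSO and 159 against 274 at 25 h over 13 h. For the class difference it called 230 against 503, 326 against 738 and 24 against 55, the last being 97 with no count filter. In enterocytes it called 3500 against 5307 at 13 h over DMSO and 1253 against 2380 at 25 h over 13 h, and over all cells 1227 against 2128 at 25 h over 13 h. Leaving out 1 library also moved such counts by over 1.5 times. The class difference fell to as few as 224 calls at 13 h and 373 at 25 h over DMSO (both without DMSO replicate 1) and to 13 at 25 h over 13 h (without 13 h replicate 2). At 13 h over DMSO it was also 313 without DMSO replicate 2 and 264 without 13 h replicate 1. At 25 h over DMSO it was also 443 without DMSO replicate 2, 450 without 25 h replicate 1 and 479 without 25 h replicate 2. At 25 h over 13 h it was also 31 without DMSO replicate 1, 24 without 13 h replicate 1, and 34 and 27 without 25 h replicates 1 and 2. In goblet cells 1033 genes were called at 13 h over DMSO without DMSO replicate 1 and 1125 without 13 h replicate 1, and at 25 h over 13 h 139 without 13 h replicate 2 and 175 without 25 h replicate 2. Over all cells the count at 25 h over 13 h was 1198 and 1289 without 13 h replicates 1 and 2. Of 720 list counts, 648 stayed within 1.5 times. With DESeq2, the other coding hosts called lower numbered 21 at 13 h and 22 at 25 h, and the NMD factors called lower at 25 h numbered 0. RNA decay enzymes called higher at 13 h numbered 5 with total-count scaling or at most 10% mitochondrial UMIs.

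The log2 difference between replicate 1 and replicate 2 was taken within each group. Over 5080 genes this difference correlated by 0.12 between DMSO and 13 h, by -0.239 between DMSO and 25 h and by -0.166 between 13 h and 25 h. The replicate numbers were therefore not used to pair the libraries in the main fit. With a replicate block, Snhg12 over all cells at 25 h was 2.55 and Snhg6 0.81 above DMSO on the log2 scale.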

Other observations

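In 5 of the 6 libraries, 1 cell of the class named tuft held more Snhg12 UMIs than any other of the class, from 5 of 16 in DMSO replicate 1 to 34 of 41 in 25 h replicate 1. The exception was DMSO replicate 2, where 4 cells had 1 UMI each. The 5 top cells held 46052 to 157040 UMIs, against class medians of 13316 to 28780, and none had a UMI of the 5 tuft markers. Their Anxa1 level, which encodes annexin A1, was 2019 to 8080 CPM, against 66.1 to 79.6 in enterocytes of the same libraries. Serpinb9b, a serine protease inhibitor gene, was at 892 to 1554, against 7.1 to 14.3. Both genes were picked after their values had been seen. Cells of the class with a tuft-marker UMI held 0 Snhg12 UMIs in each DMSO library, with 4 and 6 after 13 h, then 0 and 24 after 25 h. The class is too mixed by these markers for its levels to stand for tuft cells.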
